A study of Mus musculus with 2 samples.

Results

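Fabp5 and 7 further genes of lipid handling were followed in thymic epithelial cells (TECs) of irradiated and control mice. The 8 members were Fabp5, Fabp4, Apoe, Scd1, Scd2, Hmgcs1, Sqle and Insig1, out of 32285 genes listed for each library. The set was chosen by name, and it was chosen because Fabp5 had been higher in the irradiated library in every cluster of an earlier look at the same counts, so the Fabp5 differences between the libraries are a description and carry no test.

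TECs, sorted as EpCAM+ CD45- TER119- cells, were pooled from 3 C57BL/6 female mice per condition and measured by droplet-based single-cell RNA sequencing. The irradiated mice were exposed to γ-rays at the age of 7 weeks, with a sublethal dose of 5.5 Gy, and their thymi were taken 15 days after it. The control mice were of the same strain and age and had not been irradiated. There was 1 library per condition, so no difference below has a replicate check, the differences among mice cannot be seen, and no p-value is given. The deposit's labels and the rest of its contents disagree on which library is which. The library titled Control carries files named for irradiation, and the library titled Radiation carries files named for the control. The libraries were assigned here by the names of the files and by the number of cells the study gives for each condition, which equals the number kept here by its limits, and every direction stated below would reverse under the deposit's titles. The labels and the study also disagree on the version of the droplet chemistry and, in a protocol field of the labels, on the age of the mice.

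Fatty acids and sterols are poorly soluble, and cells move them on small carrier proteins. FABP5 and FABP4 are such carriers of fatty acids and can hand ligands to nuclear receptors of the PPAR family, while APOE carries cholesterol and phospholipid outside cells on lipoprotein particles. SCD1 and SCD2 place the double bond that turns saturated into monounsaturated fatty acids. HMGCS1 and SQLE are enzymes of the cholesterol pathway, whose genes are switched on by the transcription factor SREBP2 when sterols are low, and INSIG1 holds SREBP precursors in the endoplasmic reticulum when sterols are plentiful. The thymic epithelium contains cortical cells (cTECs), medullary cells (mTECs) that express the autoimmune regulator Aire, and mTECs that take on features of skin, gut or tuft cells.

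The members lie on chromosomes 3, 5, 7, 13, 15 and 19 of GRCm38. Fabp5 (chr3:10012548-10016607, plus strand) and Fabp4 (chr3:10204088-10208576, minus strand) belong to the same cluster of binding protein genes, each with 4 exons in the principal transcript of GENCODE. Scd2 (chr19:44293674-44306864) and Scd1 (chr19:44394455-44407879) also lie close to each other, with 6 exons each. In GENCODE, 4 further genes shared at least 10% of their 31-base words with Fabp5 transcripts. These 4 were annotated as processed pseudogenes, and none was listed in the count tables. The highest share was 59.4%, for Gm6166. How reads that match both were counted was not tested.

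Promoter sequences from RefSeq (GRCm38.p6) were at hand for 3 of the 8 members, and the 250 bases before the start of Hmgcs1, Insig1 and Apoe are shown because sterol-responsive genes are read by SREBP through such sequence. Capitals mark every match on either strand to the SREBP core TCACNCCA, the NF-Y box CCAAT, the GC box GGGCGG and the palindromic E box CACGTG. The windows were chr13:119690101-119690350 on the plus strand for Hmgcs1, chr5:28071162-28071411 on the plus strand for Insig1 and chr7:19699189-19699438 on the minus strand for the outermost of 3 listed starts of Apoe.
Hmgcs1: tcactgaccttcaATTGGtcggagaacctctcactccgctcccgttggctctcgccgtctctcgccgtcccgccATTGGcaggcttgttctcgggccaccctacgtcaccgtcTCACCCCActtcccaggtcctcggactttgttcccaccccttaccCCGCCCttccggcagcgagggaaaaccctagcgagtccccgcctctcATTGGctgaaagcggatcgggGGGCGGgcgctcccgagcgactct
Insig1: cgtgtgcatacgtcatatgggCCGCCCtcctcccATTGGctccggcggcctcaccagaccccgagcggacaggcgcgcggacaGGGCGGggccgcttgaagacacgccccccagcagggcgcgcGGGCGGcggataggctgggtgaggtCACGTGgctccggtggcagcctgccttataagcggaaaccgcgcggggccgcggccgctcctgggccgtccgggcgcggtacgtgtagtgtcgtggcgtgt
Apoe: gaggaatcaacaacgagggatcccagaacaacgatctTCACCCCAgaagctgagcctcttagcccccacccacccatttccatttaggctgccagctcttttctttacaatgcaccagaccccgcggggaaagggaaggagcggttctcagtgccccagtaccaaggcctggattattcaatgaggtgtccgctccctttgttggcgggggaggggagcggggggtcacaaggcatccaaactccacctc
The Hmgcs1 window held 1 SREBP core, from position -137 to -130, together with 3 NF-Y boxes and 2 GC boxes. The Apoe window held 1 SREBP core, from -213 to -206, and none of the other 3 motifs. The Insig1 window held 1 NF-Y box, 3 GC boxes and 1 E box, from -101 to -96, and no match to these 8 letters of the SREBP core. The last 49 bases of the Insig1 window lie inside the gene as GENCODE places its start. Among 32851 promoter windows of the same length, 3.67% held the SREBP core, 33.8% the NF-Y box, 32.7% the GC box and 6.02% the E box. A match of letters is a description and not a bound site.

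Counts of unique molecular identifiers (UMIs, each marking 1 captured RNA molecule) were used for cells with more than 2000 and fewer than 7500 detected genes and under 15% mitochondrial UMIs. These limits kept 3233 control and 5070 irradiated cells, with 51586327 and 75542631 UMIs. The median depth was 13412 UMIs per control cell and 13003.5 per irradiated cell. The 2 libraries shared 17 barcodes, of which 5 control and 7 irradiated ones were among the kept cells. Cells were placed in 13 gates by UMIs of marker genes, and each cell took the first gate it passed. In this order the gates were thymocyte RNA (at least 12 UMIs of 10 T cell genes), cTEC-like (Psmb11 and Prss16), tuft-like (Avil, Trpm5, Lrmp, Sh2d6), dividing (Mki67 and 5 others), Aire-high (at least 8 Aire UMIs), keratinocyte-like (Krt10, Krtdap and others), microfold-like (Gp2, Ccl20 and others), enterocyte-like (Muc13, Vil1 and others), Ccl21a-high cells with or without at least 2 UMIs of Ccl11, Pdpn-positive, Aire-intermediate (at least 2 Aire UMIs) and the remaining cells. In each gate the level of a gene is its summed UMIs per 10000 summed UMIs. Independent markers were higher inside than outside their gate for all of them in 10 of the 12 gates that have markers. The exceptions were thymocyte RNA, where Ptprc and Psmb11 were and Cd52 was not, and Pdpn-positive, where only Itga6 of 4 was. Psmb11 is also a marker of the cTEC-like gate. The thymocyte RNA and Pdpn-positive cells are therefore called by their rule. The thymocyte RNA gate is no T cell population, since 57 of its 67 control and 122 of its 149 irradiated cells also passed the gate of another type. In the microfold-like gate 26 of 62 control and 38 of 79 irradiated cells also passed the gate of another type. In the keratinocyte-like gate 36 of 83 and 38 of 81 did, and in the cTEC-like gate 31 of 109 and 89 of 261. In the tuft-like gate 30 of 163 and 31 of 158 did, and in the Aire-high gate 108 of 630 and 187 of 1031. None of these gates is therefore a clean cell type. Median depth was lower in the irradiated library in 12 of 13 gates.

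Fabp5 RNA was found in every gate, and its level differed by more than 10-fold between gates. In the control library Fabp5 ranked 17 of all listed genes by UMIs, with 0.477% of them, and in the irradiated library it ranked 14, with 0.636%. In microfold-like cells, which resemble the antigen-sampling cells of the gut, the level was 138 UMIs per 10000 in the control (95% Poisson interval 136 to 140) and 151 in the irradiated library (148 to 153). In cTEC-like cells it was 118 (116 to 119) and 130 (129 to 131). In keratinocyte-like cells it was 81.9 and 133, and in enterocyte-like cells 84.7 and 82.8. These 4 gates stood at the top together with the thymocyte RNA gate, at 65.9 and 108. Tuft-like cells, a chemosensory type, had the lowest level in both libraries, 8.79 (8.43 to 9.17) in the control and 12.8 (12.3 to 13.3) in the irradiated library. The top gate exceeded the bottom gate 15.7-fold in the control and 11.8-fold in the irradiated library. Without cells that passed the gates of more than 1 type, these became 26.7-fold, with cTEC-like cells at the top, and 47.3-fold.

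Of the Aire gates, the one with more Aire RNA had more Fabp5. Aire-high cells had 64.5 UMIs per 10000 in the control and 76.9 in the irradiated library, and Aire-intermediate cells had 41.1 and 58.8. Dividing cells had 42.7 and 55.0. Ccl21a-high cells, named for the chemokine that draws T cells into the medulla, were low, with 15.5 in the control and 32.4 in the irradiated library when Ccl11 was present, and 22.6 and 39.2 when it was not. Pdpn-positive cells had 16.9 and 28.8, and the remaining cells 45.2 and 50.8. Of the 12 pairs of neighbours in this order, 5 kept both libraries of one gate above both libraries of the next, and the other 7 overlapped. Microfold-like cells stood above cTEC-like cells, and Pdpn-positive above tuft-like cells, in that sense, whereas dividing and remaining cells overlapped. Without cells that passed the gates of more than 1 type, the first of these orders failed, as control microfold-like cells were at 115 and cTEC-like cells at 138 and 135.

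**Figure D1:**
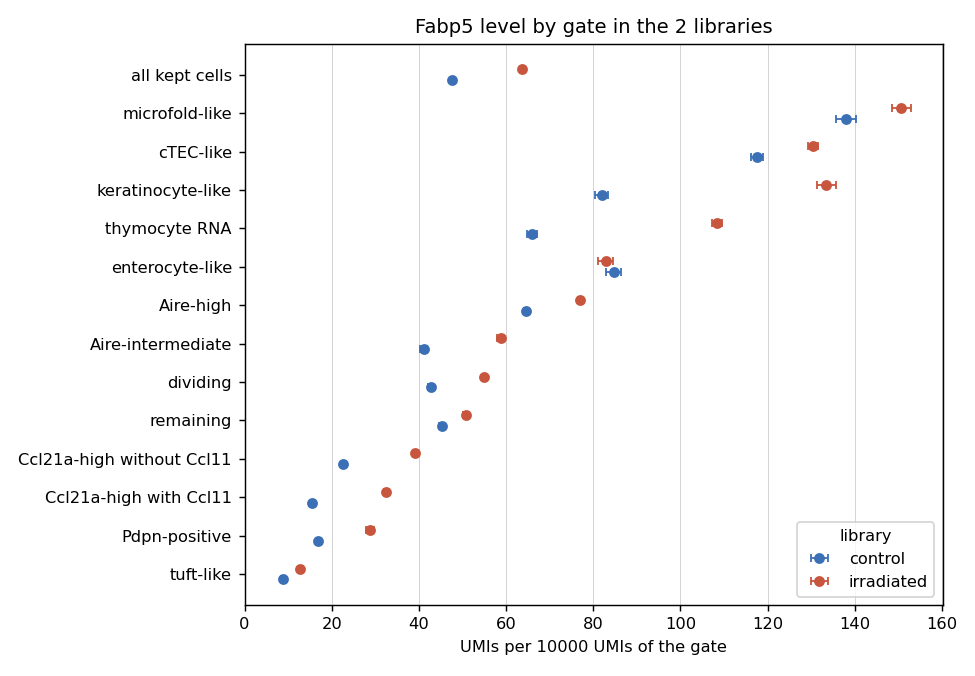
Fabp5 UMIs per 10000 UMIs in each gate and over all kept cells, in the control (blue) and irradiated (red) library, with exact Poisson 95% intervals that cover counting error only. The irradiated library lies to the right of the control in 12 of 13 gates, and enterocyte-like cells, at 84.7 and 82.8, are the exception.

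Over all kept cells, Fabp5 was at 47.7 UMIs per 10000 in the control and 63.6 in the irradiated library, a log2 ratio of 0.41 (range 0.40 to 0.42 from the ends of both intervals). The irradiated library was higher in 12 of 13 gates, and the log2 ratio reached 0.5, the size used here to call a difference, in 7 gates. It was 1.06 (1.02 to 1.11) in Ccl21a-high cells with Ccl11, 0.79 (0.75 to 0.83) in those without, 0.77 (0.67 to 0.87) in Pdpn-positive cells and 0.70 (0.65 to 0.75) in keratinocyte-like cells. In the thymocyte RNA gate it was 0.72 (0.68 to 0.76) and in tuft-like cells, the gate of lowest level, 0.54 (0.43 to 0.66). The ratio was 0.15 (0.12 to 0.18) in cTEC-like cells, 0.13 (0.08 to 0.17) in microfold-like cells and -0.03 (-0.09 to 0.03) in enterocyte-like cells. As background, 4.33% of the 4553 genes with at least 50 UMIs in every gate were higher in the irradiated library in 12 or more gates, and 2.94% were lower. A median log2 ratio of at least 0.5 over gates was seen for 0.841% of 11299 genes and one of at most -0.5 for 2.66%. Fabp5 had a median of 0.52, rank 90 among them, and stayed at or above 0.5 under 5 of 10 alternatives. Its median was 0.33 without cells that passed the gates of more than 1 type, 0.33 with thinned cells, 0.38 with gate minimums doubled, 0.30 as a mean over cells and 0.39 without the top 1% of cells, so that the call ended there. Since the rule used this contrast, nothing is read from that place. The other 7 members had medians between -0.44 (Fabp4) and 0.17 (Sqle), and none of them was called.

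In 2 gates the direction of the Fabp5 ratio changed when cells that passed the gates of more than 1 type were left out. There were 310 such cells in the control and 535 in the irradiated library, and whether they are doublets was not tested. Without them the level in tuft-like cells was 5.16 in the control and 3.58 in the irradiated library, a log2 ratio of -0.53 against 0.54 with them. In cTEC-like cells it was 138 and 135, with a ratio of -0.03. In thymocyte RNA cells it dropped to 10.2 and 12.4, which left 10 and 27 cells. In microfold-like cells the ratio went up to 0.56, with 115 and 169 UMIs per 10000. The irradiated library was then higher in 10 of 13 gates, and over all cells the levels were 44.6 and 57.2. By the order of the gates, no cell of the Ccl21a-high, Pdpn-positive, Aire-intermediate and remaining gates can pass more than 1 type gate. Their ratios could not change in this alternative, which says nothing on them. When each gate was split into 3 strata by depth, the irradiated level was higher in 32 of 39 strata. The 7 in which it was lower included the shallow (140 and 112) and the middle stratum (142 and 132) of cTEC-like cells, whereas the deep stratum had 102 and 138. The strata are parts of the same 2 libraries whose contrast chose Fabp5. How many of all genes reach such a count was not counted, so nothing is read from it.

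Fabp5 RNA was spread over most cells. After each cell was thinned at random to 4000 UMIs, the median cell held 6 Fabp5 UMIs in the control and 12 in the irradiated library. These pooled medians were not adjusted for gate shares, which differed: cTEC-like cells made up 3.37% and 5.15%, dividing cells 6.99% and 10.9%, and tuft-like cells 5.04% and 3.12%. Within gates the median was 31 and 55 in microfold-like, 19 and 21 in Aire-high and 23 and 16 in enterocyte-like cells. In Ccl21a-high cells with Ccl11 the median went from 3 to 5 and the 90th percentile from 14 to 30 UMIs. In keratinocyte-like cells the median was 21 in the control and 26 in the irradiated library, while the 90th percentile was 89 and 152. In cTEC-like cells the median was 42 and 44 and the 90th percentile 108 and 96. So the upper cells moved by more UMIs than the middle cell in keratinocyte-like cells. The 25th percentile of that gate was also higher, at 2 and 9, and the percentiles rest on 83 and 81 cells. No such widening was seen in cTEC-like cells. The share of cells with at least 1 Fabp5 UMI at this depth was 88.9% (Clopper-Pearson 95% interval 87.8 to 90) in the control and 94.2% (93.5 to 94.8) in the irradiated library, against 96.2% and 97.9% before thinning. Thinning left out 0 control and 5 irradiated cells. In tuft-like cells, the lowest gate, the shares were 50.9% and 53.8%, at median depths of 13717 and 10837.5 UMIs before thinning. Their median cell held 1 UMI in each library, and 5% of the cells held 43.6% and 57.3% of the gate's Fabp5 UMIs. At 1 UMI per cell, free RNA cannot be told apart from expression.

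**Figure D2:**
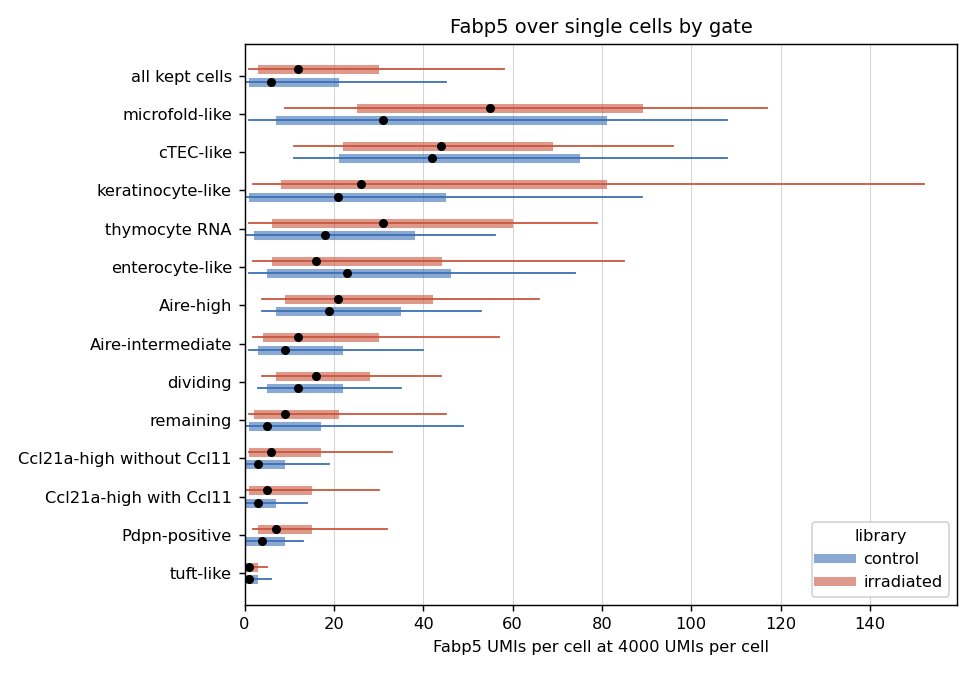
Fabp5 UMIs per cell after thinning every cell to 4000 UMIs, by gate and library; thin lines run from the 10th to the 90th percentile, thick bars from the 25th to the 75th, and black points mark the median. The medians run from 1 UMI in tuft-like cells to 42 in control cTEC-like and 55 in irradiated microfold-like cells.

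Fabp4, the carrier best known from fat cells and macrophages, was detected in fewer cells than Fabp5, with 1249 control and 1630 irradiated cells holding a UMI against 3110 and 4962. Over all cells its level was 8.78 UMIs per 10000 in the control and 6.53 in the irradiated library, a log2 ratio of -0.43 (-0.45 to -0.40). The highest levels were in microfold-like cells, at 55.0 (53.6 to 56.4) and 30.6 (29.6 to 31.6), in enterocyte-like cells, at 28.8 and 20.7, and in keratinocyte-like cells, at 21.0 and 33.3. Aire-high cells had 14.4 and 13.3 and Aire-intermediate cells 13.4 and 12.6, so these Aire gates hardly differed between libraries. Ccl21a-high cells with Ccl11 had 0.55 and 0.60, near the lower end of all gates. The Fabp4 RNA lay in few cells, since 5% of all cells held 69.2% of its UMIs in the control and 75.3% in the irradiated library, and 1 control cell alone held 1034 UMIs.

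The difference between the libraries did not run one way for Fabp4. It was lower in the irradiated library in 9 of 13 gates and higher in 4, with ratios at or past 0.5 in 2 gates upward and in 4 downward. In cTEC-like cells the level was 1.76 in the control and 0.40 in the irradiated library, a log2 ratio of -2.14 (-2.50 to -1.79). In Ccl21a-high cells without Ccl11 it was 2.40 and 0.78, or -1.62. These were gates of low level, and in control cTEC-like cells 5% of the cells held 82.1% of the thinned UMIs. In keratinocyte-like cells the ratio was 0.66 (0.56 to 0.76), and it was 0.86 without cells that passed more than 1 type gate. Few cells of this gate held the difference, since the share of thinned cells with a Fabp4 UMI was 59.0% in the control and 45.7% in the irradiated library (71.1% and 54.3% before thinning), the median cell held 2 and 0 UMIs, and 5% of the irradiated cells held 46.4% of the UMIs. In microfold-like cells the ratio of -0.84 turned to 0.35 without those cells, with levels of 30.8 and 39.2, and in tuft-like cells 0.64 turned to -0.04. The adipocyte markers Adipoq, Plin1, Cidec and Retn summed to 0.144 and 0.102 UMIs per 10000 over all cells, with all 4 found in each library, and to 0.123 and 0.120 in microfold-like cells. The macrophage and dendritic cell list of 6 genes was at 9.79 and 9.75 in microfold-like cells, and over all cells most of it was Lyz2 (3.33 of 3.75 in the control), with C1qa at 0.0818 and 0.102.

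Apoe was distributed over other gates than Fabp4. It was highest in Pdpn-positive cells, at 47.0 (46.0 to 48.0) UMIs per 10000 in the control and 37.0 (35.9 to 38.0) in the irradiated library. Ccl21a-high cells followed, at 32.9 and 27.6 with Ccl11 and at 20.2 and 16.5 without, and the remaining cells were at 27.6 and 17.9. Aire-high cells had the lowest level in each library, 1.10 (1.05 to 1.16) and 1.19 (1.14 to 1.24). The top gate thus exceeded the bottom gate 42.6-fold in the control and 31.2-fold in the irradiated library. After thinning, 95.9% of control and 87.6% of irradiated Pdpn-positive cells had an Apoe UMI, against 11.7% and 13.5% of Aire-high cells (96.6%, 87.6%, 30.6% and 27.5% before thinning).

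Over all cells Apoe was at 12.6 in the control and 9.75 in the irradiated library, a log2 ratio of -0.38 (-0.40 to -0.35). It was lower in 9 gates, with ratios of -0.63 (-0.68 to -0.57) in the remaining cells, -0.58 (-0.68 to -0.49) in cTEC-like, -0.59 (-0.95 to -0.23) in microfold-like and -0.89 (-1.26 to -0.52) in enterocyte-like cells. It was higher in 4 gates, of which dividing cells, at 2.07 and 2.96, reached a ratio of 0.52 (0.40 to 0.64). Without cells that passed more than 1 type gate, the microfold-like ratio became 1.07, from 33 and 72 UMIs, and the keratinocyte-like ratio went from -0.19 to 0.48. The summed mesenchyme list, most of it Dcn in the remaining cells, was lower in the irradiated library in gates of high Apoe, as Apoe was. The list of 5 summed to 21.5 and 13.4 UMIs per 10000 in Pdpn-positive cells and to 11.7 and 5.56 in the remaining cells, where Dcn made up 10.9 and 5.16 and Pdgfra was at 0.00477 and 0.00839. The macrophage and dendritic cell genes did not run one way in the remaining cells. C1qa, at 0.0119 and 0.212, C1qb, at 0.131 and 0.371, and Adgre1, at 0.00954 and 0.0587, were higher in the irradiated library. Lyz2, at 2.98 and 2.04, and Csf1r, at 0.0525 and 0.0210, were lower, and Itgax was not found. The macrophage and dendritic cell list as a sum was at 3.18 and 2.70 there. The part of either list in the Apoe difference was not tested.

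**Figure D3:**
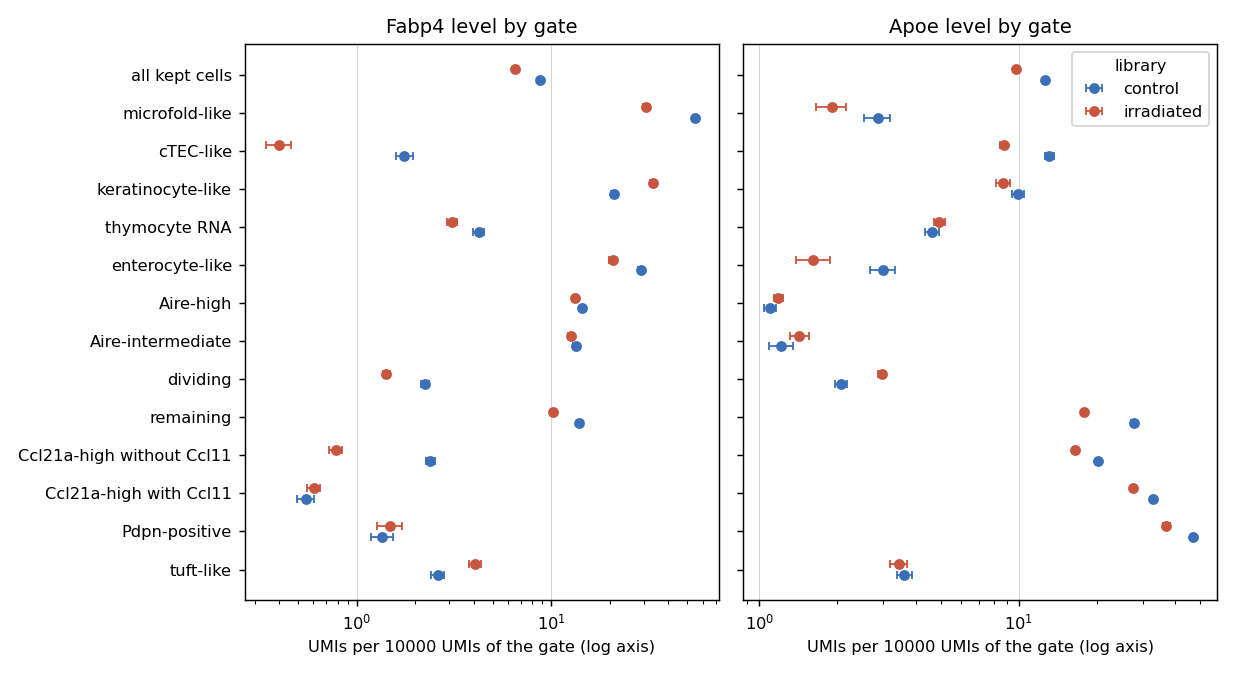
Levels of Fabp4 (left) and Apoe (right) by gate in the control (blue) and irradiated (red) library, as UMIs per 10000 UMIs on log axes, with exact Poisson 95% intervals. Fabp4 is highest in microfold-like, keratinocyte-like and enterocyte-like cells. It is lowest in Ccl21a-high cells with Ccl11 in the control and in cTEC-like cells in the irradiated library. Apoe is highest in Pdpn-positive cells and Ccl21a-high cells with Ccl11, and lowest in the 2 Aire gates.

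The desaturases differed little between the libraries over all cells. Scd1 was at 0.634 UMIs per 10000 in the control and 0.578 in the irradiated library (log2 ratio -0.14, range -0.23 to -0.04), and Scd2 at 1.62 and 1.72 (0.08, range 0.02 to 0.14). With each gate given the same weight in both libraries, the overall Scd1 ratio was 0.07. Scd1 varied more between gates than Scd2 did, 31-fold against 2.37-fold from top to bottom in the control. Scd1 was highest in microfold-like cells, at 3.14 and 2.46, and in keratinocyte-like cells, at 1.64 and 3.10. The keratinocyte-like ratio of 0.92 (0.57 to 1.27) rested on few cells, as it was -0.17 without the top 1% of the gate's cells in each library and -0.03 without cells that passed more than 1 type gate. Scd2 had no gate with a ratio at or past 0.5 in either direction, and its levels ran from 1.19 and 1.21 in Aire-high cells to 2.83 in control microfold-like cells and 3.01 in irradiated keratinocyte-like cells.

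Hmgcs1, which makes HMG-CoA at the entry of the pathway, and Sqle, which oxidises squalene ahead of ring closure, differed in direction over all cells. Hmgcs1 was at 0.835 in the control and 0.745 in the irradiated library (-0.17, range -0.25 to -0.08), and Sqle at 0.653 and 0.721 (0.14, range 0.06 to 0.23). Both reached the calling size in Ccl21a-high cells with Ccl11, the gate with the highest Fabp5 ratio. There Hmgcs1 was at 0.450 (0.402 to 0.501) and 0.667 (0.620 to 0.716), a ratio of 0.57 (0.31 to 0.83), and Sqle at 0.408 (0.363 to 0.458) and 0.676 (0.629 to 0.725), a ratio of 0.72 (0.46 to 1.00). In Ccl21a-high cells without Ccl11, Sqle had a ratio of 0.32 and Hmgcs1 one of -0.19 (-0.45 to 0.08). Hmgcs1 was also higher in microfold-like cells, at 0.959 and 1.52 (0.66, range 0.17 to 1.18), and lower in the remaining cells, at 1.62 and 1.09 (-0.57, range -0.80 to -0.33). For Sqle the range spanned 0 in 11 of 13 gates.

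Insig1 had the fewest UMIs of the members, with 640 control and 799 irradiated UMIs in all, at 0.124 and 0.106 per 10000 (-0.23, range -0.44 to -0.02). Its highest control level was in Pdpn-positive cells, at 0.378 (0.293 to 0.480) against 0.149 (0.0898 to 0.233) in the irradiated library, or 67 and 19 UMIs. That ratio of -1.32 (-2.42 to -0.33) was the only one of 13 whose range did not span 0. At this depth the other gates allow no statement on direction.

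**Figure D4:**
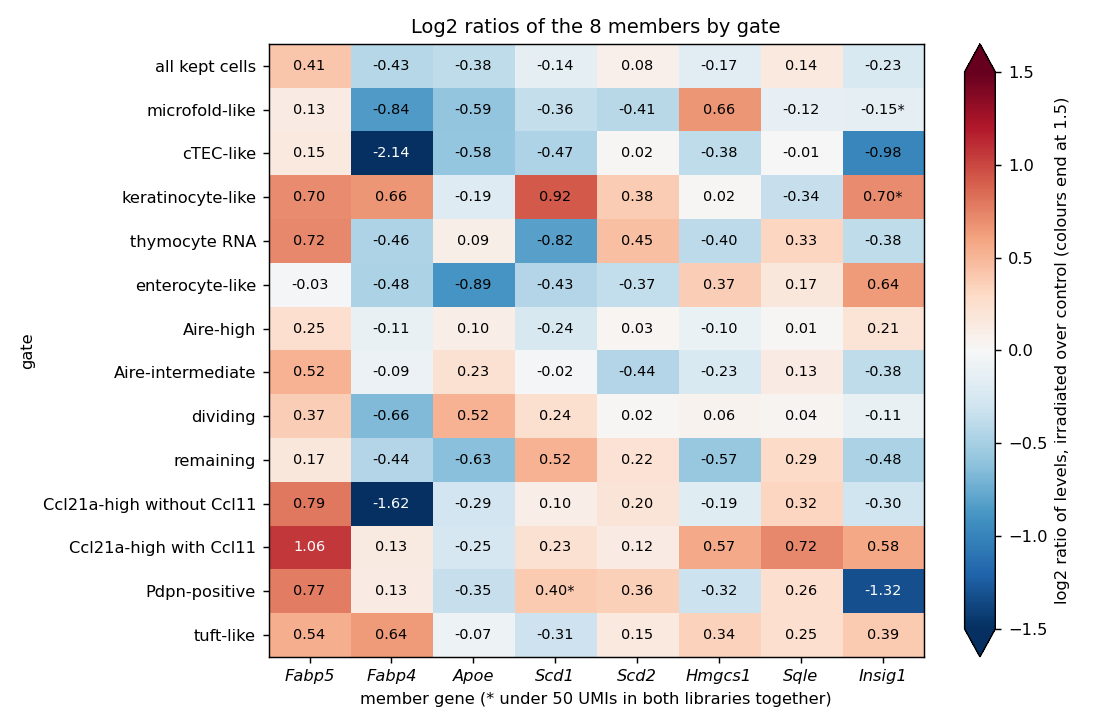
Log2 ratios of irradiated over control levels for the 8 members in each gate and over all kept cells, printed in each cell of the grid; colours end at 1.5 and an asterisk marks fewer than 50 UMIs in both libraries together. The Fabp5 column is above 0 in 12 of 13 gates, while the other columns hold both signs.

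Counted over all 8 members, 101 pairs of a gene and a gate had at least 50 UMIs, and 17 of them (16.8%) had a ratio of at least 0.5, beside 6.39% of 128694 such pairs over all genes. A ratio of at most -0.5 was seen in 12 pairs (11.9%), beside 9.32% over all genes. The 7 upward pairs of Fabp5 are among these, and the rule chose them. Without Fabp5, 10 of 88 pairs (11.4%) were upward and 12 (13.6%) downward. Pairs in 1 gate share their cells, so these shares are descriptions.

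The levels of some members ran in parallel over the gates. Over 26 points (13 gates in 2 libraries, which share cells, library and depth), Pearson's r of log2 levels was 0.69 for Hmgcs1 and Sqle and 0.69 for Hmgcs1 and Insig1. It was 0.70 for Fabp4 and Scd1, 0.66 for Fabp4 and Hmgcs1 and 0.61 for Fabp4 and Sqle. Sqle and Insig1 had 0.46, and Fabp4 and Apoe had -0.54. Hmgcs1 and Sqle thus did not stand apart from Fabp4, while r was 0.34 for Fabp4 and Insig1. How many pairs of all genes reach such values was not counted. For Fabp5 the nearest member was Scd2 with r = 0.56. Over 12594 genes with at least 500 UMIs, the 5 whose pattern was most like that of Fabp5 were Mfge8 (0.88), which encodes a secreted protein that binds phosphatidylserine, Hvcn1 (0.86), a proton channel, Srxn1 (0.84) and Txn1 (0.83), which encode proteins of thiol redox reactions, and Mreg (0.83). Mfge8 was at 0.228 and 0.190 UMIs per 10000 in tuft-like cells and at 1.91 and 3.12 in microfold-like cells.

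Genes of 6 lists of lipid pathways were set beside the members. In each list a gene was called when its median log2 ratio over gates was at least 0.5 in size, for genes with 50 UMIs in at least 5 gates, and the median of all 11299 genes was -0.02. In the list of cholesterol synthesis and uptake, none of 24 genes was called in either direction, and the list's median was 0.12, with 17 genes above 0. Fdps, which makes farnesyl diphosphate, was its highest with a median of 0.42 and levels of 0.571 and 0.743 over all cells, followed by Nsdhl at 0.23, and Insig1 was the lowest at -0.30. Summed over its 26 genes, the list was higher in Ccl21a-high cells with Ccl11, at 4.77 UMIs per 10000 in the control and 6.69 in the irradiated library (ratio 0.49, range 0.41 to 0.57). The range of the summed list lay above 0 in 5 gates, below 0 in 2 and spanned it in 6. Sums of this many UMIs give ranges off 0 at small ratios, such as 0.07 (0.005 to 0.14) in dividing cells. No like counts over other sets of genes were made, here or for the sums below. The list of fatty acid synthesis and desaturation had none of 17 genes called and a median of -0.05, with Fads2 (0.18) and the synthase gene Fasn (0.14) highest and Elovl5 (-0.28) and Acsl1 (-0.26) lowest.

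In the list of lipid and retinoid binding proteins, Fabp6 and, by a median just past 0.5 that fell short of it under the alternatives named above, Fabp5 of 12 genes were called higher and Fabp2, Fabp9 and Pmp2 lower. Without Fabp5 and Fabp4, the sum of this list was lower with a range below 0 in 6 of 13 gates. Its range lay above 0 in 2 and spanned it in 5. The other called carriers were rare and patchy, unlike Fabp5. Fabp6, a bile acid carrier of the ileum, had a median ratio of 1.55 but levels of 0.674 and 0.589 over all cells, and 172 control and 252 irradiated cells held all of its UMIs. The Aire-high gate held 72.8% and 69.3% of its UMIs. Fabp2, the intestinal carrier, was found in 76 and 100 cells, at 0.200 and 0.100 (median -0.96). Fabp9, known from testis, was at 8.73 and 3.25 in enterocyte-like cells, and 1 control cell held 12.7% of its UMIs. Pmp2, a carrier of myelin, had a median of -0.68 and was found in 117 and 150 cells.

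The list of PPAR targets, uptake and oxidation had none of 12 genes called and a median of 0.00. The receptor gene Ppard was its highest at 0.45, ahead of Lpl at 0.08, and Vldlr, at -0.28, was near its lower end. Over all cells Ppard was at 0.142 in the control and 0.151 in the irradiated library, a log2 ratio of 0.09 whose range (-0.10 to 0.28) spanned 0. Among LXR targets and genes of sterol efflux, Apoa1 of 11 genes was called, with a median of 0.79 from 141 and 171 cells, 1 of which held 21.8% of the irradiated UMIs. Apoc1, a neighbour of Apoe in the same cluster of genes, had a median of 0.34 and levels of 0.355 and 0.447, whereas Apoe had a median of -0.25, Apod one of -0.31 and Nr1h3 one of -0.29. In the lipid droplet list, none of 6 genes was called higher, and Mgll and Dgat1 were called lower. Mgll, which cleaves monoacylglycerol, was lower in 12 of 13 gates, at 1.21 and 0.731 over all cells (median -0.57), and its highest levels were in Pdpn-positive cells, at 4.60 and 2.82. Dgat1, which makes triacylglycerol, had a median of -0.50 from 520 and 573 UMIs. Cidea (0.47) and the lipase gene Pnpla2 (0.07) were the highest of that list. Cidea was higher in 3 of the 5 gates in which it had 50 UMIs, and 1 cell held 11.1% of its irradiated UMIs. The sum of the list was lower with a range below 0 in 9 of 13 gates. Without Mgll that held in 2 gates, and the sum over all cells was 2.51 and 2.44 (ratio -0.04, range -0.09 to 0.00489), an alternative chosen after seeing the data. Pnpla2 was higher in 12 of 13 gates.

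**Figure D5:**
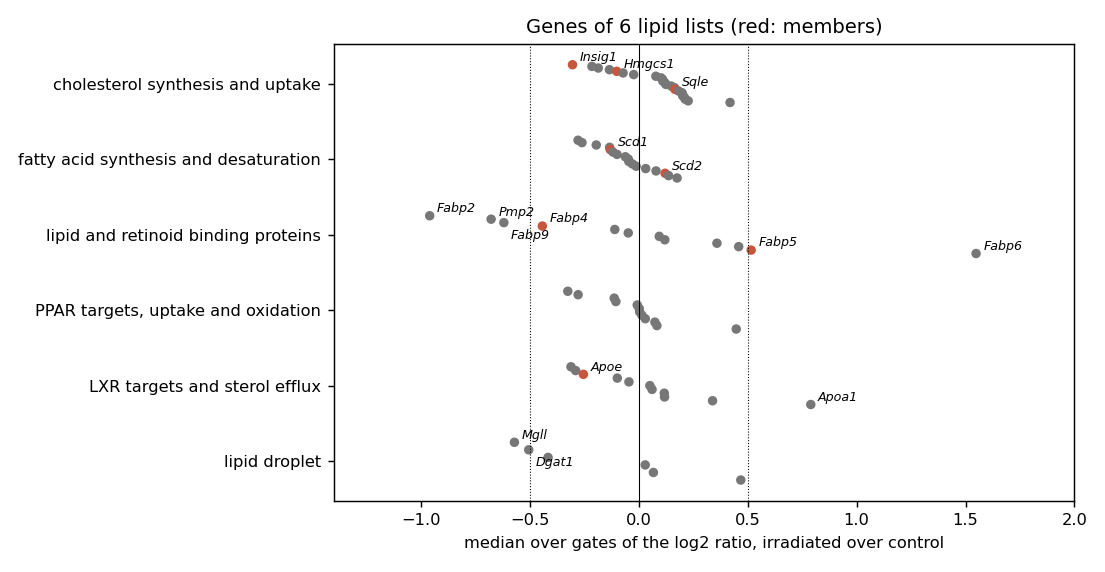
Median over gates of the log2 ratio, irradiated over control, for each gene of 6 lipid lists (points) with members in red; dotted lines mark ratios of -0.5 and 0.5, and genes past them and members are named. Fabp5 and Fabp6 lie past the upper line in the list of binding proteins, and no gene of the cholesterol, fatty acid or PPAR lists lies past either line.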

How the data were processed

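TECs of irradiated and control mice were measured in 2 libraries, 1 per condition. The authors deposited raw UMI counts per gene and barcode without normalization, made with Cell Ranger, whose version is 5.1 in the submitters' processing notes and 5.0.1 in the file headers, for the mouse genome; the annotation is not given in the sources used here. The members and lists were chosen with earlier results of these data known. The named genes were the 8 members, the 2 highest and 2 lowest genes of each list, and the 5 genes most like Fabp5, although some genes named by this rule are not reported here. Gate minimums, set from the markers alone, were 20 UMIs for cTEC-like, keratinocyte-like, microfold-like, enterocyte-like and Ccl21a-high, 12 for tuft-like, dividing and thymocyte RNA, 8 for Aire-high and 2 for Pdpn, Ccl11 and Aire-intermediate. Rows with the symbol Ccl21a were summed. Log2 ratios had 0.5 UMIs added to each sum. Exact Poisson and Clopper-Pearson intervals cover counting error only, and a range combines opposite ends. No doublet caller was run, so only the upper gene limit and the alternative without cells of more than 1 type gate bear on doublets. The latter takes no cell from the Ccl21a-high, Pdpn-positive, Aire-intermediate and remaining gates. With 1 library per condition no test was possible. On simulated counts, all 176 changed genes that could be called had the right sign and were called, as were 3 of 11136 unchanged genes. The changes put in were 2-fold, well past the calling size, and the simulated counts had counting error only. They therefore do not bear on log2 ratios near 0.5. These numbers describe the simulated counts only. How often genes are missed or wrongly called in the measured counts was not tested. The alternatives numbered 12 as planned and 2 were added after seeing the data. Python 3.11.15, numpy 2.4.6, scipy 1.17.1, pandas 2.3.3 and matplotlib 3.10.9 were used.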

Additional observations from a re-analysis of the deposited data

Results flagged for a closer look

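For 5 members, cells of one gate lay above the control and cells of another below it, each with a range that excluded 0. The gates named are those of each member's highest and lowest ratio. How many of all genes meet the same rule was not counted, so this is not read as a trait of the members. The log2 ratio of Fabp4 was 0.66 in keratinocyte-like and -2.14 in cTEC-like cells, a difference of 2.80, and 0.86 and -1.73 without cells that passed the gates of more than 1 type. That of Scd1 was 0.92 in keratinocyte-like and -0.82 in thymocyte RNA cells, a difference of 1.74. Without cells that passed the gates of more than 1 type, the Scd1 ratios were -0.03 and 1.88. The 1.88 rested on 2 control and 11 irradiated UMIs in 10 and 27 cells, too few for a statement on direction. The log2 ratio of Apoe was 0.52 in dividing and -0.89 in enterocyte-like cells, a difference of 1.40. That of Hmgcs1 was 0.66 in microfold-like and -0.57 in the remaining cells, a difference of 1.23. That of Scd2 was 0.45 in thymocyte RNA and -0.44 in Aire-intermediate cells, a difference of 0.88. With 1 library per condition these differences were not tested.

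Fabp5 was higher in the irradiated library in barcodes that were left out for having 2000 or fewer detected genes. These 1548 control and 1925 irradiated barcodes held 30.5 and 49.4 Fabp5 UMIs per 10000, a log2 ratio of 0.70 (range 0.65 to 0.74). In the same barcodes Apoe was at 8.16 and 5.90 and Fabp4 at 9.31 and 10.4. These barcodes were not gated and belong to the 2 libraries whose contrast chose Fabp5. How many of all genes reach such a ratio there was not counted, so it adds no support.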

How the results depend on the processing

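No paired analysis was possible because each condition has 1 library. Over all kept cells the ratio of Fabp5 stayed above 0 under 11 alternatives, between 0.36 and 0.45. It was 0.36 without cells of more than 1 type gate, 0.39 with an upper limit of 6000 detected genes, 0.40 with 10% mitochondrial UMIs, 0.45 with thinned cells, 0.45 as a mean over cells and 0.44 without the top 1% of cells. Fabp4, Apoe, Scd2, Hmgcs1, Sqle and Insig1 kept their sign over all cells as well, and Scd1 reversed to 0.0656 with equal weights of the gates. Of the ratios by gate under all alternatives, 875 stayed within their counting range. Among them were those of the gates that lose no cell in the alternative without cells of more than 1 type gate. A further 143 moved beyond that range and 22 whose range lay off 0 reversed, none of them without the barcodes found in both libraries. Without cells of more than 1 type gate these were Fabp5 in cTEC-like (-0.0265) and tuft-like cells (-0.53), Fabp4 in tuft-like (-0.0366) and microfold-like cells (0.35), Apoe in keratinocyte-like (0.48) and microfold-like cells (1.07), Scd1 in thymocyte RNA (1.88), keratinocyte-like (-0.0324) and microfold-like cells (0.10) and Scd2 in keratinocyte-like cells (-0.38). With gate minimums doubled they were Fabp4 in thymocyte RNA (0.34) and Aire-high cells (0.0095) and Scd1 in thymocyte RNA cells (1.14). With an upper limit of 6000 they were Apoe in keratinocyte-like (0.21) and microfold-like cells (0.00234) and Hmgcs1 in cTEC-like cells (0.0194). With thinned cells they were Fabp4 in tuft-like (-0.18) and Apoe in microfold-like cells (0.17), and as a mean over cells Apoe in keratinocyte-like (0.00420) and microfold-like cells (0.17). Without the top 1% of cells they were Scd1 (-0.17) and Scd2 (-0.12) in keratinocyte-like cells. Apart from the alternatives that leave out cells or UMIs, the cause was not tested. The 1.88 of Scd1 in thymocyte RNA cells rested on 2 control and 11 irradiated UMIs and allows no statement on direction.

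Counts of called list genes were small and moved. Cholesterol genes called higher went from 0 to 1 with thinned cells. Binding proteins called higher, Fabp5 and Fabp6, went from 2 to 1 with doubled minimums, without cells of more than 1 type gate, as a mean over cells and with a minimum of 200 UMIs, and to 0 with thinned cells. Those called lower went from 3 to 1 with thinned cells and with 200 UMIs. Which binding proteins made up each count is not given here and can differ between alternatives. Fabp5 itself also fell short of the call without the top 1% of cells, with a median of 0.39. The 1 LXR gene called higher, Apoa1, was lost (0) with limits of 1000 or 6000 detected genes, doubled minimums, without cells of more than 1 type gate, with thinned cells, as a mean over cells, without the top 1% and with 200 UMIs, and 1 LXR gene was called lower without the top 1%. Lipid droplet genes called lower went from 2 to 1 with a limit of 1000 genes, 10% mitochondrial UMIs, doubled minimums, without cells of more than 1 type gate, with thinned cells, without the top 1% and with 200 UMIs, and 1 was called higher as a mean over cells. Depth limits Insig1 and, in gates of low level, Scd1.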
